A study of Mus musculus with 8 samples.

Results

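Neuropeptide genes were examined in sorted cells of the mouse frontal isocortex at postnatal day 7. The set held 10 genes, Sst, Npy, Vip, Crh, Tac2, Pnoc, Cck, Penk, Pdyn and Tac1, named by symbol. All 10 were among the 17836 genes of the table for one reporter line (D1Tom) and among the 15769 genes of the table for the other (GTE), and 15464 genes were in both tables. D1Tom cells carried a Drd1a-tdTomato bacterial artificial chromosome transgene (line 6), which places a red fluorescent protein under control sequences of the dopamine D1 receptor gene. GTE cells carried the golli-τ-eGFP transgene, a green reporter. Controls were littermates with floxed Foxp2 alleles (Foxp2 flox/flox) and no Cre, and conditional knockouts (cKO) were Foxp2 flox/flox with Emx1-Cre, so the floxed alleles were shared by every animal. All lines had been backcrossed to C57BL/6J. Each sort had 2 control and 2 cKO libraries made with a droplet-based 3′ kit. D1Tom control 1, control 2 and cKO 1 were labelled female and cKO 2 male, and GTE cKO 2 was the only GTE library labelled female. Emx1-Cre is active in the lineage of the dorsal telencephalon, which gives rise to cortical excitatory neurons and part of the glia, whereas most cortical interneurons are born outside it.

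Neuropeptides are cut from larger precursor proteins, packed into dense core vesicles and released to act on G protein-coupled receptors over longer distances than amino acid transmitters. In the cortex most of these genes mark classes of inhibitory interneurons. Somatostatin (Sst) marks interneurons from the medial ganglionic eminence that contact distal dendrites, and vasoactive intestinal peptide (Vip) marks interneurons from the caudal ganglionic eminence that mainly inhibit other interneurons. Cholecystokinin (Cck) is shared by one interneuron class and many excitatory neurons.

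The D1Tom libraries held 2395 to 3206 cells with a median of 7198 to 12815 counts per cell, and the GTE libraries held 1440 to 3948 cells with a median of 1085.5 to 2982. The labels put control 1 with cKO 1 of D1Tom on one preparation day and control 2 with cKO 2 on another. In D1Tom, 97 barcodes occurred in 2 or more libraries, and in GTE 63. D1Tom control 1 stood apart in immediate early genes, with Fos at 539 CPM (counts scaled to a common library total) against 50.8 to 61.9 in the other D1Tom libraries. The targeted gene Foxp2 was at 36.3 and 39.1 CPM in the D1Tom control pair and at 26.5 and 19.4 CPM in the D1Tom cKO pair. In GTE it was at 9.52 and 46.9 CPM in the control pair and at 25.4 and 7.43 CPM in the cKO pair, so the GTE groups overlapped. Although the sorted cells were described as neurons, glial and endothelial clusters (astrocyte-like, oligodendrocyte precursor-like, committed oligodendrocyte precursor-like, microglia-like and endothelial-like) supplied 718 to 1079 cells of each D1Tom library. Nothing in the labels ties a library to a number of animals, so p-values measure the spread between these libraries. The tests estimate that spread partly from other genes, most of all in fits with a block.

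Promoters of 7 of the 10 genes, all but Crh, Pnoc and Penk, were matched in the RefSeq table of mouse build GRCm38.p6, with Pdyn at 2 start sites. The 100 bases before the start site are shown for 6 of these genes because they show which of them hold the core of the cyclic AMP response element, a motif bound by the factor CREB. That motif was searched on both strands as the half-site TGACG and as the full palindrome TGACGTCA, which contains the half-site on both strands. Capitals mark the match, which reads CGTCA on the other strand. Sst lies at chr16:23890845-23890944 (minus strand), Vip at chr10:5639118-5639217 (plus), Cck at chr9:121495695-121495794 (minus), Tac1 at chr6:7554961-7555060 (plus), Npy at chr6:49822610-49822709 (plus) and Tac2 at chr10:127724378-127724477 (plus).
Sst: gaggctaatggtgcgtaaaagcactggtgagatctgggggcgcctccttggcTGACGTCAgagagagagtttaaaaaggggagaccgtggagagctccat
Vip: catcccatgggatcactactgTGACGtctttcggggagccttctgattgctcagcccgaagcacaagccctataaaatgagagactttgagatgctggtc
Cck: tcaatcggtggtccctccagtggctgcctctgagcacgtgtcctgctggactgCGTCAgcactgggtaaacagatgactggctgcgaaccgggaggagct
Tac1: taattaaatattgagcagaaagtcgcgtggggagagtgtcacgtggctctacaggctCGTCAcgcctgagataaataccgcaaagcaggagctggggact
Npy: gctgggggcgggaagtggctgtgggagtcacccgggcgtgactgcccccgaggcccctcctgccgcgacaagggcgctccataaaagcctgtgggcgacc
Tac2: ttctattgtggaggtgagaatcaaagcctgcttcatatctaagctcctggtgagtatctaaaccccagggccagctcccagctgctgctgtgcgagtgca

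The half-site was present in 4 of the 7 genes, Sst, Vip, Cck and Tac1, and in 10.5% of all 32851 promoters of the table. The palindrome was present in Sst alone among the 7 genes, starting 48 bases before the start site, and in 1.15% of all promoters. In the counts below, Sst and Tac1 had their highest mean level in medial interneuron-like cells and Vip and Cck in caudal interneuron-like cells. The leads of Tac1 and Cck were not secure. Npy and Pdyn, which lacked the half-site, were also highest in medial cells, and Tac2, which lacked it too, in caudal cells. The half-site therefore did not set these types apart.

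Cell types were rebuilt by clustering each sort without the 10 genes and naming clusters from marker lists that also left them out, so names carry the ending "-like". In D1Tom 3 clusters were interneuron-like. Lists of 4 values follow the order control 1, control 2, cKO 1, cKO 2 from here on. Medial interneuron-like cells (47, 44, 56 and 22 cells) were led by Crhbp, Lhx6 and Cort. Caudal interneuron-like cells (213, 70, 318 and 88 cells) were led by Adarb2, Sp8 and Htr3a. Interneuron-like cluster 15 (96, 66, 54 and 55 cells) was led by Lamp5, Sv2c and Hapln1 and took neither the medial nor the caudal name. Levels are CPM of the counts summed over a cell type in a library, and their means carry the SD over 4 libraries, or over 3 where a library had under 20 cells of the type. Because the clusters came from the same cells, levels across them are a description with no test. Levels were compared within a gene, not between genes.

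By mean CPM in the main clustering, all 10 genes were highest in one of the 3 interneuron-like types among 21 D1Tom types. Sst, Npy, Penk, Pdyn and Tac1 were highest in medial interneuron-like cells, Vip, Crh, Tac2 and Cck in caudal interneuron-like cells, and Pnoc in cluster 15. The lead was not secure for Cck and Tac1, as given below, and in most alternative settings Cck was highest in an excitatory type. With D1Tom cells classed by marker counts per cell instead, Cck had 399 CPM in the excitatory class and 238 in the interneuron class. The other genes were highest in the interneuron class. When every cell was thinned to 1000 counts, 9 of the 10 genes had their highest share of cells with a count in an interneuron-like type, and Cck had it in upper layer-like cells.

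**Figure D1:**
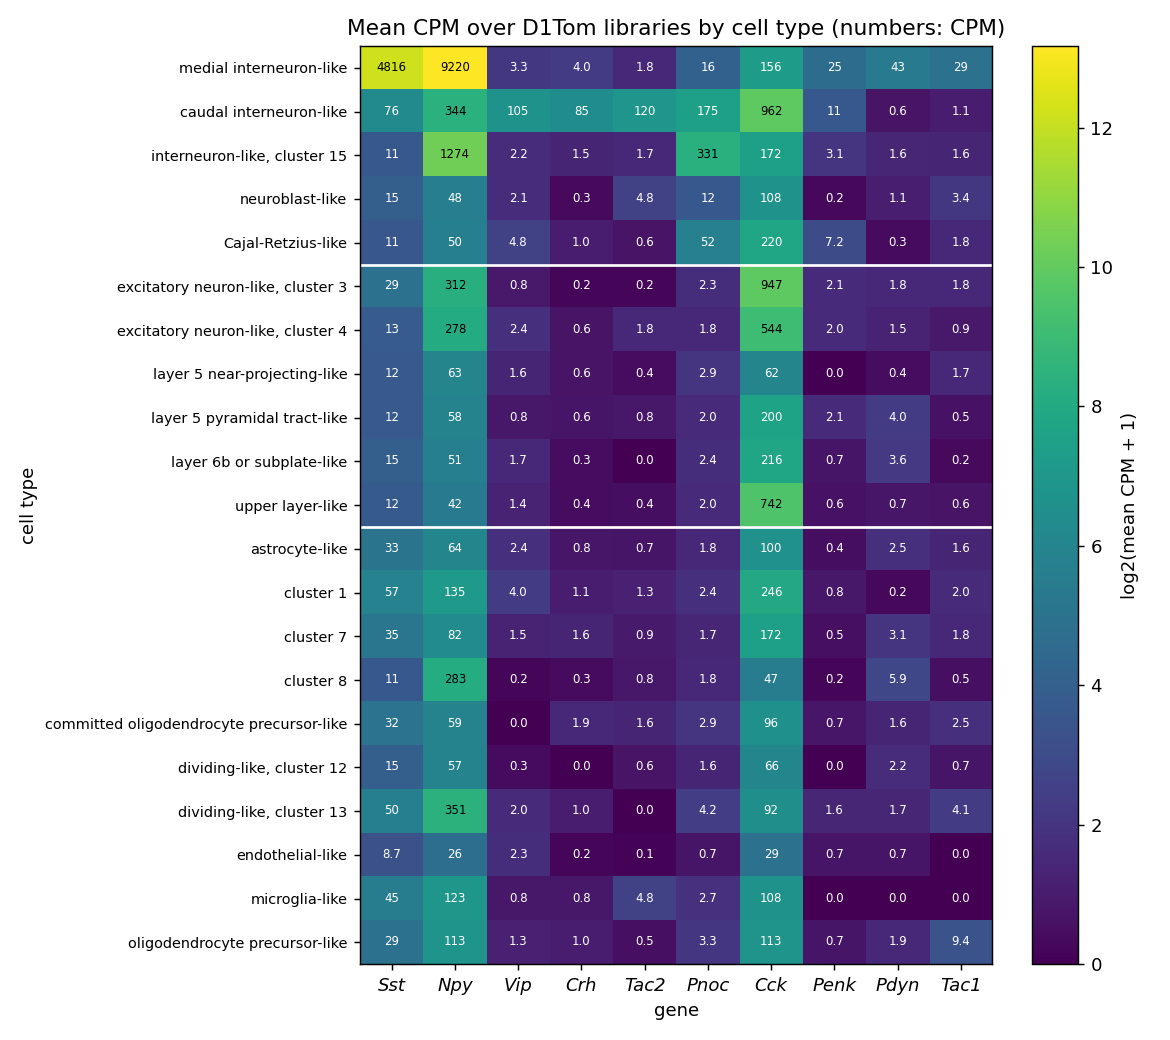
Mean CPM over D1Tom libraries of the 10 neuropeptide genes (columns) in 21 cell types (each line of cells 1 type, with interneuron-like, neuroblast-like and Cajal-Retzius-like types at the top, then excitatory types, then the others); colour is log2(mean CPM + 1) and the printed numbers are mean CPM. Sst and Npy are brightest in medial interneuron-like cells, Vip, Crh and Tac2 in caudal interneuron-like cells, and Cck is spread over caudal interneuron-like and excitatory types.

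Sst encodes the precursor of somatostatin, an inhibitory peptide. In medial interneuron-like cells Sst stood at 7228, 3852, 5198 and 2988 CPM. The mean was 4816 ± 1847 CPM (SD, n = 4), and the next type, caudal interneuron-like cells, had 76.1 ± 53.2 CPM. The libraries of these 2 types did not overlap, since the highest caudal value was 143 CPM. After thinning to 1000 counts, 63.8%, 68.2%, 83.9% and 63.6% of medial cells had an Sst count. Below the medial cells the order of types carried no clear steps, since the ranges of caudal interneuron-like cells and cluster 1, at 57.1 ± 30.3 CPM, overlapped. Cluster 1 has no cell type name and was led by haemoglobin and mitochondrial genes.

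Sst counts sat in very few cells. The fewest cells that together held 50% of the Sst counts of a library numbered 5, 9, 10 and 50. Interneuron-like cells held 80.5% of the Sst counts in control 2 and 88.9% in cKO 1, but 38.3% in cKO 2. In cKO 2 a larger part of the Sst counts therefore lay outside the interneuron-like types than in those libraries, and that library also had the fewest medial cells.

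Npy encodes neuropeptide Y, another inhibitory peptide that is made by part of the Sst cells and by neurogliaform interneurons. In medial interneuron-like cells Npy stood at 16110, 9518, 8972 and 2281 CPM, a mean of 9220 ± 5650 CPM. In cluster 15 it stood at 1708, 903, 1190 and 1297 CPM, a mean of 1274 ± 334. The lowest medial library lay above the highest cluster 15 library. Caudal interneuron-like cells had 344 CPM on average, excitatory neuron-like cluster 3 had 312 and cluster 4 had 278, and these ranges overlapped. Dividing-like cluster 13 had a mean of 351 CPM, of which a single cell with 1076 counts in control 1 made the larger part: without the highest cell of each library that library fell from 1183 to 50.0 CPM.

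Npy was less concentrated than Sst across types, and its ratio to Sst differed between types. In medial interneuron-like cells the ratio of Npy to Sst counts was 2.23, 2.47, 1.73 and 0.76. Astrocyte-like cells had ratios of 3.03, 1.97, 1.76 and 1.28. Excitatory neuron-like cluster 4 had ratios of 93.7, 11.9, 35.4 and 6.65, and cluster 8, an unnamed cluster led by Cd74, Gfap and Serpinf1, had 41.7, 16.4, 51.3 and 10.5. Cluster 15 had 252, 59.9 and 55.7 in control 1, control 2 and cKO 2, while its cKO 1 cells had 998 Npy counts and no Sst count. Astrocyte-like ratios thus ran from 1.28 to 3.03, close to the 0.76 to 2.47 of medial cells. This closeness did not hold for every glial or endothelial type. Oligodendrocyte precursor-like cells had 10.8, 3.89, 4.81 and 2.1, endothelial-like cells 7.33, 2.59, 5.33 and 1.91, and microglia-like cells 4.75, 3.58, 2.79 and 1.42. The endothelial-like and microglia-like cKO 1 values rest on 16 and 19 cells. Committed oligodendrocyte precursor-like cells had 1.85 in control 2 and 1.29 in cKO 2, within the medial range. Cluster 4, cluster 8 and cluster 15 held Npy with little Sst.

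**Figure D2:**
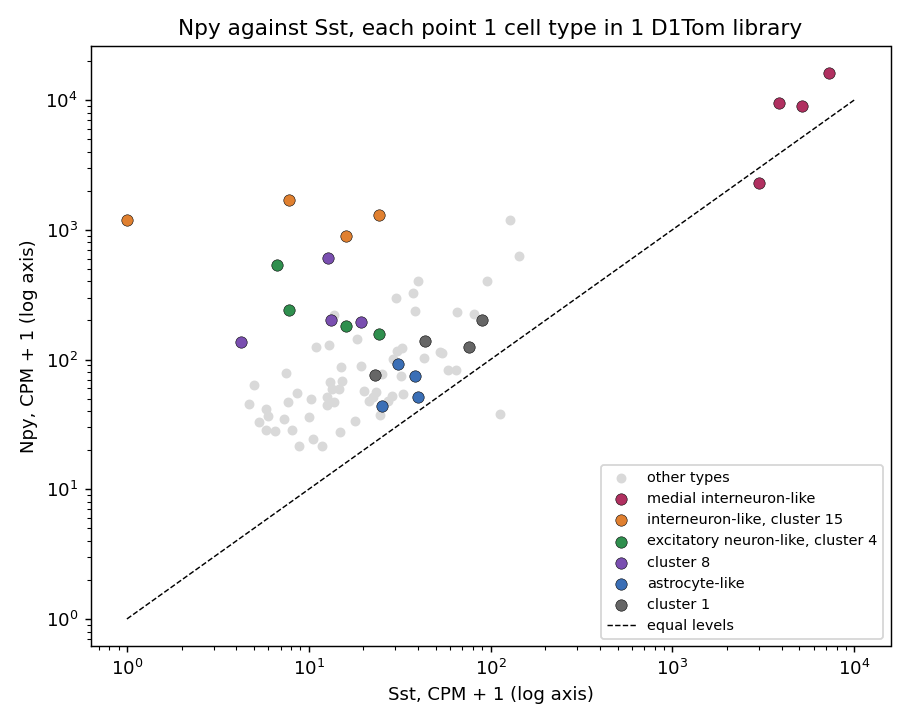
Npy against Sst in D1Tom, with CPM + 1 on both log axes; each point is 1 cell type in 1 library and the dashed line marks equal levels. Medial interneuron-like cells sit at the upper right, astrocyte-like cells and cluster 1 lie close to the line, and cluster 15, excitatory neuron-like cluster 4 and cluster 8 lie far above it at Sst levels of 23.4 CPM or less.

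Vip, Crh (corticotropin-releasing hormone, a stress peptide) and Tac2 (the precursor of neurokinin B) were found together in caudal interneuron-like cells. Vip stood there at 170, 132, 26.2 and 90.2 CPM, a mean of 105 ± 61.6 CPM. Crh stood at 208, 48.7, 55.7 and 26.6 CPM, a mean of 84.9 ± 83.3, and Tac2 at 235, 110, 54.8 and 78.4 CPM, a mean of 120 ± 80.3. Control 1 was the highest library for all 3 genes. Every other type had a mean of at most 4.83 CPM of Vip, 3.96 of Crh and 4.83 of Tac2, and for each of these genes the lowest caudal library lay above every library of the type ranked next.

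These 3 genes also met in the same cells. In the interneuron-like cells of all libraries thinned to 1000 counts, 16 of 32 cells with a Vip count also had Tac2 (50.0%, exact 95% interval 31.9 to 68.1), against 2.5% of cells without Vip. Crh was found in 15 of the 32 (46.9%, 29.1 to 65.3), against 2.4% of cells without Vip, and Tac2 in 19 of 41 cells with Crh (46.3%, 30.7 to 62.6), against 2.2% of cells without Crh. Control 1 supplied 17 of the 32 Vip cells and 13 of the 15 Vip cells with Crh. In the 3 other libraries the shares of Vip cells rest on 5 cells each, so the overlap of Vip with Crh is mainly that of 1 library. The 41 cells with Crh were 28, 4, 9 and 0 over the libraries, so the share of them with Tac2 also rests mainly on control 1. Unthinned, Crh was found in 31 of 33 Vip cells of control 1, 8 of 14 of control 2, 5 of 14 of cKO 1 and 5 of 12 of cKO 2, and in 3.3% to 6.5% of cells without Vip. All intervals cover counting error only. The shares pool the 3 interneuron-like clusters, and the cells without Vip or Crh include types low in all 3 genes. The contrasts therefore follow cell type as well, and no share within caudal cells alone was made.

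Sst and Npy overlapped in the same way. Of 144 thinned interneuron-like cells with an Sst count, 68 had Npy (47.2%, 38.9 to 55.7), against 17.2% of the cells without Sst. Per library the shares were 62.9%, 57.6%, 40.0% and 23.8%, against 18.0%, 27.2%, 12.7% and 16.7% of cells without Sst. The share was higher in Sst cells in all 4 libraries, by least in cKO 2, where it rests on 21 Sst cells. Only 1 of the 144 Sst cells had Crh and 1 had Tac2, against 4.1% and 4.3% of cells without Sst. These shares also pool the interneuron-like clusters, and Sst and Npy were both highest in medial cells. The contrasts with cells without Sst therefore follow cell type as well, and no share within medial cells alone is given.

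Pnoc encodes prepronociceptin, the precursor of the opioid-like peptide nociceptin. It stood at 354, 306, 392 and 270 CPM in cluster 15, a mean of 331 ± 53.6 CPM, and at 223, 206, 173 and 96.1 CPM in caudal interneuron-like cells, a mean of 175 ± 56.3. Cajal-Retzius-like cells, the early-born reelin neurons of layer 1, were next with 63.8, 57.0, 38.5 and 47.4 CPM, a mean of 51.7 ± 11.1. The ranges of these 3 types did not overlap with each other or with the type ranked below them. In medial interneuron-like cells Pnoc had 3.65 and 1.45 CPM in the control pair and 37.9 and 20.2 CPM in the cKO pair, from 2, 1, 27 and 4 counts.

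Cck was the gene with the widest spread over cell types. Caudal interneuron-like cells had 1149, 1420, 807 and 472 CPM, a mean of 962 ± 412, and excitatory neuron-like cluster 3 had 702, 1436, 618 and 1030, a mean of 947 ± 371. Upper layer-like cells, which express Cux2 and other genes of layers close to the surface, had 806, 812, 742 and 608 CPM, a mean of 742 ± 94.6. These 3 types overlapped and could not be ranked, and cluster 3 exceeded the caudal cells once the single highest cell of each library was left out (902 against 901 CPM). Excitatory neuron-like cluster 3 had shallow cells, with medians of 1854 to 5170.5 counts, and only 2 of the 10 general excitatory markers were at least 2-fold higher in it, so its name rests on the upper layer list, of which 5 of 7 genes were. Thinned to 1000 counts, 53.2%, 50.6%, 49.5% and 41.1% of upper layer-like cells had a Cck count, against 41.3%, 55.7%, 25.4% and 21.6% of caudal interneuron-like cells. Layer 6b or subplate-like cells had 277, 233, 165 and 190 CPM, below every upper layer-like library. The fewest cells holding 50% of the Cck counts numbered 183, 236, 112 and 300 in the 4 libraries, far more than for Sst, and interneuron-like cells held 17.2%, 13.3%, 21.7% and 8.62% of the Cck counts.

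Penk and Pdyn encode the opioid precursors proenkephalin and prodynorphin, and both were low. Penk had 25.5, 20.3, 32.3 and 20.2 CPM in medial interneuron-like cells, a mean of 24.6 ± 5.71, and Pdyn had 45.6, 17.4, 53.4 and 55.6 CPM there, a mean of 43.0 ± 17.6. The lowest medial library lay above every library of the type ranked next for both genes. Cajal-Retzius-like cells, ranked below that type for Penk, had 26.5 CPM in control 1 from 22 counts in 4 cells, 3 counts in control 2 and none in the cKO libraries. The medial values rest on only 4 to 23 Penk counts and 11 to 38 Pdyn counts per library. Without the highest cell of each library the medial mean was 11.3 CPM for Penk and 22.9 for Pdyn. Both opioid genes therefore depended on a few cells, and medial interneuron-like cells stayed the highest type for both without them.

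Tac1 encodes the precursor of substance P and neurokinin A. Medial interneuron-like cells had 25.5, 84.2, 2.81 and 5.06 CPM, from 14, 58, 2 and 1 counts, and without the highest cells the mean fell from 29.4 to 7.68 CPM. Oligodendrocyte precursor-like cells had 15.9, 2.98, 13.0 and 5.70 CPM, a mean of 9.39 ± 6.05, from 41, 10, 34 and 23 counts. These counts came from 19, 7, 19 and 22 cells with at most 5 counts each, and astrocyte-like cells had 0.60 to 2.95 CPM. In D1Tom they ranked second for Tac1, after the medial cells. In GTE, oligodendrocyte precursor-like cells had the highest mean of Tac1 among all types measured, with 7.04, 7.81, 36.7 and 17.1 CPM. The value in GTE cKO 1 rests on 40 counts in 19 cells and the others on 3 to 9 counts.

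Sst, Npy and Cck also had counts outside neurons. In the glial and endothelial cells of D1Tom, Sst had 21.5, 24.7, 21.0 and 43.2 CPM, Npy had 96.1, 74.1, 66.8 and 78.8, and Cck had 51.6, 120, 71.1 and 104. After thinning, 1.20% to 3.90% of glial and endothelial cells had an Sst count, 3.99% to 7.05% an Npy count and 5.38% to 11.8% a Cck count. The same shares in interneuron-like cells were 9.97% to 18.3% for Sst, 16.2% to 32.8% for Npy and 17.0% to 33.3% for Cck. Median counts were 6520.5 to 10654 per glial or endothelial cell and 6065 to 13204 per interneuron-like cell. This glial and endothelial set leaves out 2 unnamed clusters, cluster 8 and cluster 7, whose leading genes include the astrocyte markers Gja1 and Fgfr3. Npy had 134, 201, 604 and 192 CPM in cluster 8 and 58.3, 102, 53.3 and 113 CPM in cluster 7. Vip had 1.26 to 2.43 CPM in the glial and endothelial cells, Pnoc 1.83 to 2.43, Crh 0.46 to 1.02 and Tac2 0 to 1.46. A share of cells with a count at or below these values is read here as background. By that reading the Sst share of caudal interneuron-like cells was background in control 2 (1.43%, against 3.20% of its glial and endothelial cells). In control 1, cKO 1 and cKO 2 it was 2.40%, 2.54% and 7.95%, against 1.20%, 2.24% and 3.90%.

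GTE held no interneuron-like cluster, and the abundant peptide genes differed far less between the types measured there. These were glial, dividing, red blood cell-like and unnamed types, since the clusters with a neuron name had too few cells. The red blood cell-like name rests on very few cells, since Hbb-bs was found in 0.482%, 0%, 0% and 0.997% of that cluster. Its levels are therefore not read as those of red blood cells. Cut by marker counts per cell, 417 GTE cells were classed as interneurons and 716 as excitatory neurons. Levels in those cells are not given here. Mean levels ran from 93.1 to 223 CPM for Cck, from 29.5 to 77.9 for Npy and from 8.69 to 51.5 for Sst. Astrocyte-like cells had 102 CPM of Cck, 31.6 of Npy and 24.4 of Sst. Over all GTE cells Sst had 268, 96, 49 and 227 counts, which gave 44.0, 19.7, 9.66 and 40.1 CPM. Npy had 64.7, 35.5, 13.0 and 78.5 CPM, Cck 223, 186, 78.5 and 172, and Vip 7.39, 7.38, 11.8 and 1.41. GTE cKO 1, the library with the fewest and deepest cells, was lowest for Sst, Npy and Cck. Interneuron genes did not share one order over these libraries: Slc32a1, the vesicular GABA transporter, had 23, 21, 4 and 33 counts, Gad2, a GABA synthesis enzyme, 169, 169, 174 and 202, and Adarb2 17, 26, 177 and 50.

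The genes whose pattern over the 21 D1Tom types was most like that of a neuropeptide gene were found by Pearson's r of log2(CPM + 1), given as a description over types that share libraries. For Sst they were Cort (r = 0.91), Lhx6 (0.90) and Crhbp (0.89), which encode the related peptide cortistatin, a transcription factor of medial interneurons and a binding protein for corticotropin-releasing hormone. For Npy they were Slc32a1 (0.76), Grik1 (0.75) and Chodl (0.75). Crh and Tac2 were most like each other (0.86) and Vip was most like Crh (0.86), followed by Cfap58 (0.78) and Tac2 (0.77). Tac2 was further like Sp8 (0.82), a transcription factor of caudal interneurons and neuroblasts. For Pnoc they were Zfp536 (0.84), Prok2 (0.83) and Neb (0.83), and for Cck Vstm2l (0.87), Cdh12 (0.85) and Sema6c (0.85). The genes most like Cck all had their highest level in excitatory neuron-like cluster 3.

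Between genotypes, 9 of the 10 genes had a lower fitted level in cKO over all D1Tom cells, and none passed the test (edgeR's quasi-likelihood test, Benjamini-Hochberg adjusted p under 0.05, 0% of 14508 genes called). Over all genes 51.5% had a lower fitted level. The direction of Sst, Crh, Tac2, Pnoc and Penk turned with 1 library left out, and that of Sst, Pnoc and Penk also in neuron-like cells only. The median log2 fold change of cKO over control was -0.44 over the 10 genes and -0.01 over all genes. At an unadjusted p under 0.05 there was 1 of the 10 genes, Cck, against 2.21% of all genes, and DESeq2 called none of the 10 and 0.139% of 17319 genes. With the preparation day as a block 0.00689% of genes passed, none of them a neuropeptide gene. Sst stood at 131 and 93.1 CPM in the control pair and at 149 and 59.9 in the cKO pair, and Npy at 494 and 310 against 388 and 154. Both genes overlapped between genotypes. Cck stood at 366 and 330 CPM in the control pair and at 290 and 187 in the cKO pair, a log2 fold change of -0.50 (SE 0.20, adjusted p = 0.998 by edgeR). Cck and Tac1 had both cKO libraries below both controls, an arrangement found in 13.7% of all genes, and Pdyn had both above, against 9.7%. Tac1 stood at 2.20 and 3.28 CPM in the control pair against 2.03 and 2.01, and Pdyn at 2.17 and 2.03 CPM against 2.92 and 2.64, so both lay near the bottom of the scale. In sums over all cells, fewer cells of a type and less RNA per cell cannot be told apart, and interneuron-like cells made up 11.1%, 7.52%, 15.2% and 5.36% of the cells.

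**Figure D3:**
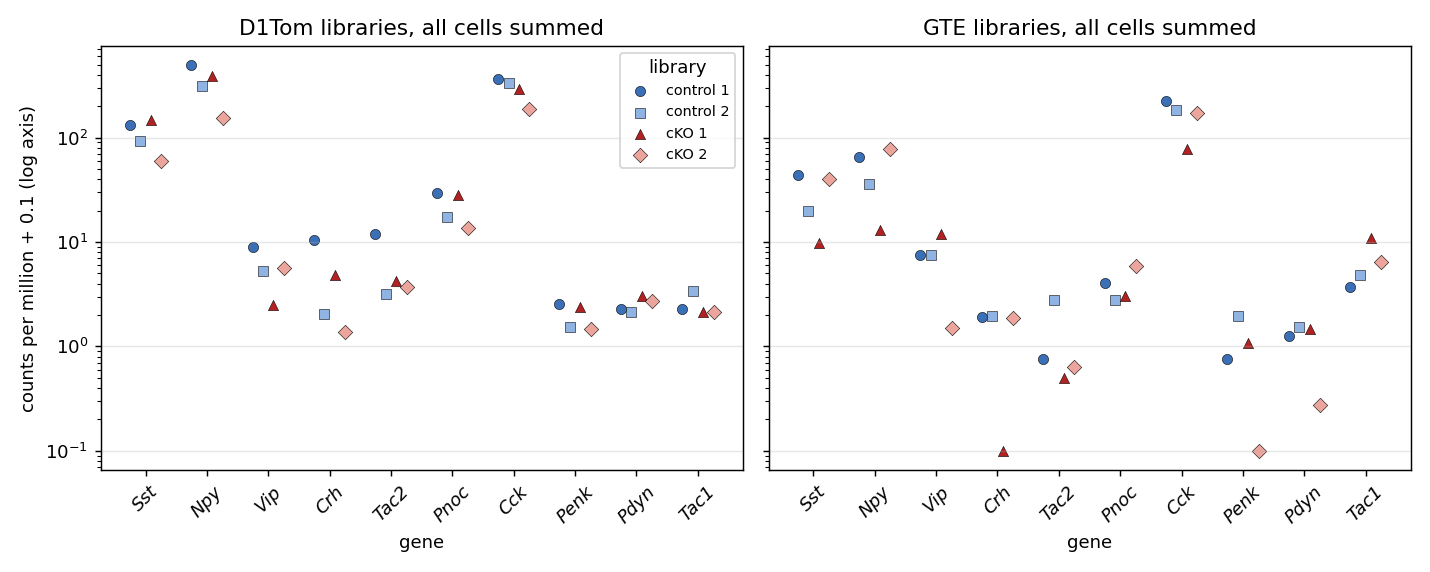
CPM + 0.1 (log axis) of the 10 neuropeptide genes (horizontal axis) over all cells of each library, D1Tom on the left and GTE on the right; each point is 1 library. In D1Tom Cck and Tac1 have both cKO points below both control points and Pdyn has both above, and in GTE cKO 1 lies lowest for Sst, Npy and Cck.

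In GTE 6 of the 10 genes were abundant enough to test, and none passed the threshold, where 0.0332% of 12042 genes did. None reached an unadjusted p under 0.05 either, against 5.22% of all genes. DESeq2, which had values for all 10, called none of them and 0.0127% of 15733 genes. Their median log2 fold change was -0.47, against -0.05 over all genes. Cck had -0.96 (SE 0.63), Vip -0.78 (SE 0.63), Sst -0.61 (SE 0.54), Npy -0.33 (SE 0.56), Pnoc 0.10 (SE 0.72) and Tac1 0.62 (SE 0.64). No standard error was smaller than 0.54, so changes of that size were not detectable. None of the genotype effects of the 10 genes differed between the sorts by edgeR's interaction test (0% of 14026 genes called, no neuropeptide gene and 3.22% of all genes at an unadjusted p under 0.05, adjusted p from 0.941 to 0.995 over the 10 genes).

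In caudal interneuron-like cells Vip, Crh, Tac2, Cck, Pnoc, Npy and Sst were lower in each cKO library than in the control of the same day. Which of them passed the test turned on how the fit was set up. Vip, Tac2, Cck and Pnoc had both cKO libraries below both controls, with the values given above, against 17% of the 9613 genes tested there. For Cck this arrangement was not particular to caudal cells. Upper layer-like (13.3% of all genes), layer 6b or subplate-like (14.2%) and layer 5 pyramidal tract-like cells (13.7%) had it too, as did the medial cells described below. In the other types compared the Cck groups overlapped. In caudal cells the fit without pairing called none of the 8 testable genes and 0% of all genes, and DESeq2 called none of the 10 and 0.0348% of 14359 genes. In the unpaired edgeR fit 5 of the 8 were at an unadjusted p under 0.05 against 2.81% of all genes. In that fit the log2 fold change was -1.43 for Vip (SE 0.51), -1.55 for Crh (SE 0.53), -1.36 for Tac2 (SE 0.36) and -0.99 for Cck (SE 0.31), each with an adjusted p of 0.998 by edgeR. With no filter on low counts the same unpaired test passed 0.265% of 14359 genes, among them Crh (adjusted p = 2.31e-04), Vip (0.00133) and Tac2 (0.00186). With the preparation day as a block, 1.22% of genes passed, and 5 of the 8 were among them, all lower in cKO.

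With that block Crh fell by 1.63 on the log2 scale (SE 0.23, edgeR adjusted p = 1.06e-07), Vip by 1.68 (SE 0.23, 1.06e-07) and Tac2 by 1.45 (SE 0.21, 6.30e-07). Cck fell by 0.98 (SE 0.17, 5.33e-05) and Npy by 0.74 (SE 0.17, 0.00565). Pnoc had -0.62 (adjusted p = 0.0568), Sst -0.52 (0.378) and Penk 0.04. The differences within a day, on log2(CPM + 1), were -2.65 and -0.55 for Vip, -1.88 and -0.85 for Crh, -2.08 and -0.48 for Tac2, and -0.51 and -1.59 for Cck. The decline was steeper on the day of control 1 for Vip, Crh and Tac2, and on the other day for Cck. For each of these genes the 2 days lay further apart than the SE of the fit with the block. That SE draws on the spread of other genes, since 4 libraries leave little information on each gene. Crh was detected in 49 of 213, 12 of 70, 17 of 318 and 7 of 88 caudal cells.

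Single libraries carried much of these differences. Without control 1 the log2 fold change of the unpaired fit was -0.22 for Crh, -0.77 for Tac2 and 0.09 for Npy, and without cKO 1 it was -0.59 for Vip. For Cck it lay between -1.30 and -0.74 whichever library was left out. The unpaired edgeR test called Crh, Npy and Sst without cKO 1 (0.933% of all genes), Tac2 and Vip without cKO 2 (0.236%), and none of the 8 without control 1 (0%) or control 2 (0.00945%). With all 3 interneuron-like clusters summed, none of the 10 genes passed either fit, where 0.0624% of 11215 genes passed with the block and 0% without it. At an unadjusted p under 0.05 were Cck, Npy, Tac1 and Tac2, against 1.38% of all genes, and with no filter on low counts Tac1 passed (edgeR adjusted p = 0.0163, 0.0985% of 15225 genes).

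Other markers moved with genotype in the caudal cells, and their part in the result was not tested. The 8 genes of the neuroblast list, which mark immature interneurons, summed to 1737 and 1350 CPM in the control pair and to 2948 and 2733 in the cKO pair, none at 0. Igfbpl1, a gene of immature neurons, had 231 and 82.4 CPM in the control pair and 630 and 399 in the cKO pair. The 6 genes of the caudal list summed to 4013 and 3075 CPM in the control pair and to 2909 and 1923 in the cKO pair, and the interneuron list to 2409, 1577, 2463 and 1748. The astrocyte list had 425, 968, 385 and 1642 CPM. Fos had 148 CPM in control 1 and 11.2 to 14.98 in the others, and passed the paired fit as well (log2 -2.73, adjusted p = 4.12e-09 by edgeR). A gene high in 1 library alone could thus pass that fit. Foxp2 itself had 28.4, 28.7, 110 and 42.9 CPM in these cells. Median counts per caudal cell were 6879, 10190.5, 5693.5 and 6588.

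**Figure D4:**
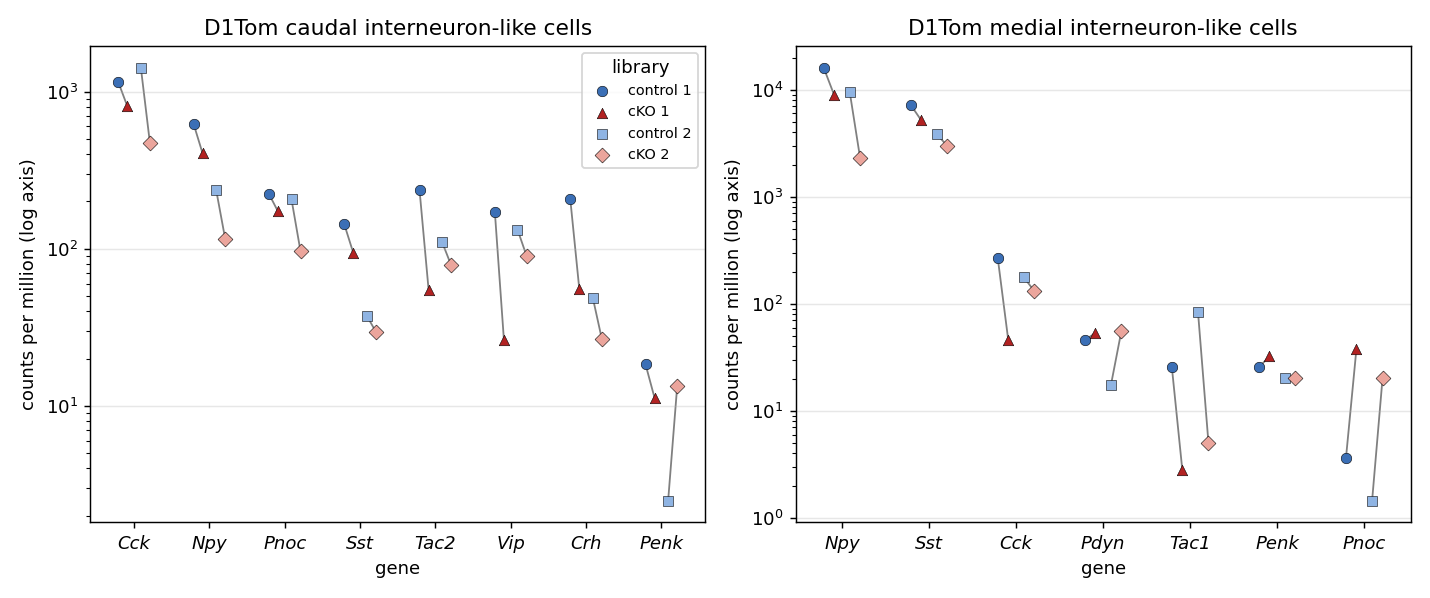
CPM (log axis) of neuropeptide genes in caudal interneuron-like cells (left) and medial interneuron-like cells (right) of D1Tom; each point is 1 library and grey lines join the control and cKO library prepared on the same day. In the caudal panel both lines fall from control to cKO for Vip, Crh, Tac2, Cck, Pnoc, Npy and Sst, and in the medial panel both fall for Npy, Sst, Cck and Tac1 and rise for Pnoc and Pdyn.

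Medial interneuron-like cells had as few as 22 cells in a library and were fitted only as an alternative added after the data had been seen. Of the 7 testable genes, Npy, Cck and Tac1 had both cKO libraries below both controls, against 12.6% of 8114 genes, and Pnoc and Pdyn had both above, against 17.6%. Cck stood there at 268 and 177 CPM in the control pair and at 46.4 and 131 in the cKO pair. The unpaired fit called none of the 7 and 0% of all genes, with Cck, Npy, Pnoc and Tac1 at an unadjusted p under 0.05 against 2.6% of all genes, and DESeq2 called none of the 10 and 0% of 13788 genes. With the day as a block 0.111% of genes passed, among them Npy (log2 -1.48, SE 0.21, edgeR adjusted p = 1.01e-04), Cck (-1.66, SE 0.32, 0.0148) and Tac1 (-3.51, SE 0.65, 0.0102), the last from 1 or 2 counts in each cKO library. With no filter on low counts and no pairing those 3 passed again, and Pnoc with them (log2 3.50, edgeR adjusted p = 0.0347), where 0.0943% of 13788 genes did. Sst had -0.47 (SE 0.18, adjusted p = 0.453) and its groups overlapped. The astrocyte list summed to 275, 1503, 503 and 2958 CPM in these cells and the medial list to 2707, 2295, 3187 and 2356, and their part in the result was not tested. The median depth of the medial cells in cKO 1 was 3930.5 counts, against 15913.5 in control 2.

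Over the 14 D1Tom types fitted, none of the neuropeptide genes passed in any type, where 0.0263% of 140735 pairs of gene and type passed. With the block 7 pairs of these genes passed, among 545 of all pairs (0.387%). With no filter on low counts 7 passed, among 428 of 204848 (0.209%), and by DESeq2 none, among 35 (0.0171%). The number of pairs of these genes that were tested is not given, so these counts are not read against those shares. Outside the interneuron-like types, Npy or Sst passed in some of these fits in 3 types that are not their main source. In cluster 8, Npy stood at 134, 201, 604 and 192 CPM, with a fitted change of 1.26 on the log2 scale (edgeR adjusted p = 0.123, 0.317% of 10408 genes called). It passed with no filter (7.03e-05 by edgeR, 0.894% of genes), and a single cell held 257 of the 872 Npy counts of cKO 1. In layer 5 pyramidal tract-like cells Npy stood at 27.0, 143, 27.6 and 32.7 CPM, and no gene passed the unpaired fit (0%). Npy passed there with the block (log2 -1.19, edgeR adjusted p = 0.00208, 0.349% of 10309 genes) and with no filter (6.9e-06, 0.192%). A single cell held 161 of the 288 Npy counts of control 2, and without control 2 the fold change was 0.14.

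In cluster 1, Sst stood at 42.4, 22.3, 74.7 and 89.1 CPM, higher in both cKO libraries than in both controls. Sst did not pass the unpaired fit, where 0.0324% of 9256 genes did, and passed with the block (log2 1.28, edgeR adjusted p = 0.0104, 0.151% of genes) and with no filter (0.00651, 0.201%). No cell held more than 21 of these Sst counts, and the cluster had 211, 57, 338 and 462 cells. Penk in Cajal-Retzius-like cells passed with no filter (edgeR adjusted p = 0.049, 0.188% of 14375 genes called), on the few counts given above. Npy in dividing-like cluster 13 passed when control 2 (0.177% of genes called), cKO 1 (0.0681%) or cKO 2 (0.078%) was left out and not without control 1 (0.059%), which held the single cell with 1076 Npy counts.

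The share of caudal interneuron-like cells with counts of neuropeptide genes was lower in the cKO libraries. No such share was made for other genes, and 17% of the genes tested there had both cKO levels below both controls. After thinning, 67.3%, 71.4%, 45.7% and 40.9% of caudal cells had a count of at least 1 of the 10 genes, and 24.5%, 27.1%, 9.84% and 10.2% had at least 2. In medial cells the first share overlapped between genotypes (91.5%, 79.5%, 89.3% and 77.3%). The second was lower in both cKO libraries (51.1%, 47.7%, 33.9% and 40.9%), from only 19 of 56 cells in cKO 1 and 9 of 22 in cKO 2. In cluster 15 both shares overlapped (49.0%, 59.1%, 55.6% and 49.1% with at least 1). The 3 clusters made up different parts of the interneuron-like cells in each library, so shares over all 3 follow that mix as well. Over all thinned interneuron-like cells, 65.5%, 68.9%, 52.7% and 48.5% had a count of at least 1 of the 10 genes, and 25.6%, 29.4%, 14.6% and 14.5% had at least 2. With 2 libraries against 2 an exact permutation test could not reach 0.05, and none was made.

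The pathway around the peptides was read from lists of receptors, processing genes and other peptide precursors, over all D1Tom cells. Of 22 receptor genes 18 were tested, 5 with a higher and 13 with a lower fitted level in cKO, none past the threshold, with a median log2 fold change of -0.22. The extremes were Tacr1 (-0.80), the receptor of substance P, and Oprk1 (-0.78), the receptor of dynorphin, at one end and Adcyap1r1 (0.31) and Oprd1 (0.41) at the other. All 19 genes of peptide processing and dense core vesicles were tested, 9 higher and 10 lower, none past the threshold, with a median of -0.02. Their extremes were Pam (-0.45), which amidates peptides, Pcsk2 (-0.35), a prohormone convertase, Cpe (0.38), a carboxypeptidase, and Crhbp (0.98). Of 31 other peptide genes 19 were tested, 8 higher and 11 lower, none past the threshold, with a median of -0.07, from Pthlh (-0.76) and Oxt (-0.68) to Edn1 (0.87) and Cort (1.33). The 13 immediate early genes had a median of -1.03, with 11 lower and none past the threshold. In caudal interneuron-like cells, 0 of 5 receptors and 0 of 18 processing genes tested passed with or without the block.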

How the data were processed

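Droplet single-cell RNA sequencing was done on 8 libraries, and the counts used here are whole numbers that the authors deposited as 1 matrix for each sort. Per the submitters' processing notes, the tools included Cell Ranger 2.1.1, UMI-tools 0.5.4, STAR 2.5.2b and featureCounts, with builds mm10 and GRCm38.p6. Values of 2 were more frequent than values of 1 in D1Tom control 1 (ratio 1.69) and cKO 1 (1.54) and less frequent in control 2 (0.723) and cKO 2 (0.307), so the counts are not plain numbers of molecules and no Poisson intervals were used. Values of the deposited cell tables were used only for library names and for the column totals, which matched in every cell.

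Cells with at least 500 counts were clustered in scanpy 1.11.5 (2000 variable genes, 30 principal components, 20 neighbours, Leiden resolution 1). Clustering did not use the 10 genes, Foxp2, Emx1, the entry named Drd, or genes of sex chromosomes, the immediate early response, mitochondria, ribosomes and haemoglobin. Clusters took a name from 3 or more markers of a general or a layer list that were at least 2-fold higher, so these names need not match the authors' types. Doublets stayed in, and an alternative left out the highest doublet scores at 0.8% per 1000 cells. Levels are given for types with at least 20 cells in at least 3 libraries.

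Counts were summed per library, or per library and type with at least 30 cells in each library, and tested with edgeR 4.0.16 (quasi-likelihood test, TMM factors, filterByExpr, Benjamini-Hochberg over all genes tested), with DESeq2 1.42.0 as an alternative. The SE given with an edgeR fit is the size of the log2 fold change divided by the square root of the F value of its test. The code was tested on simulated data. Replicate numbers pair the D1Tom libraries because the labels give each number a shared preparation day, and same-numbered libraries deviated together from their group means (correlation 0.50 over 14508 genes). The labels contradict themselves on the GTE sexes, so GTE batches were treated as unknown.

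All 10 genes are named in every comparison, list genes are those past the test or else the 2 highest and 2 lowest, and the 3 most alike genes are given for the 7 genes of at least 50 CPM in a type. The genes and lists were chosen with earlier results of these data known. Library totals ran from 27323298 to 36379194 counts in D1Tom and from 4878370 to 6092396 in GTE. Alternatives were another size factor, no filter, single libraries left out, other cluster settings, thinning depths and neuron-like cells only.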

Additional observations from a re-analysis of the deposited data

How the results depend on the processing

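Over all cells, no alternative called any of the 10 genes in D1Tom, in GTE or in the interaction, among them DESeq2, other size factors, no filter on low counts, doublets left out and each library left out. In D1Tom cell types the count of gene and type pairs past the threshold rose from 0 to 7 with no filter on low counts, to 7 with the replicate block, which pairs the preparation days, and to 4 to 7 with a library left out. With no filter more genes enter the fit, and beyond that the cause was not tested. DESeq2, other size factors, doublets left out and Leiden resolution 0.5 kept it at 0. Over all genes in caudal cells 0 passed, against 117 with the block and 38 with no filter, and in GTE 4, against 0 and 18. The block changed no other call of the 10 genes than those given for caudal, medial and the 2 other types named.

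Fold changes that reversed with a library left out had these ranges on the log2 scale. Over all D1Tom cells they were -0.72 to 0.38 for Sst, -2.06 to 0.60 for Crh, -1.52 to 0.33 for Tac2, -0.60 to 0.24 for Pnoc and -0.34 to 0.33 for Penk. Over all GTE cells they were -2.56 to 0.39 for Sst, -2.77 to 0.58 for Npy and -0.96 to 0.77 for Pnoc. In caudal interneuron-like cells they were -1.49 to 0.74 for Sst, -1.73 to 0.095 for Npy and -0.51 to 2.20 for Penk, and for Npy in layer 5 pyramidal tract-like cells -2.28 to 0.14. With neuron-like cells only, D1Tom gave 0.026 for Sst, 0.24 for Pnoc and 0.40 for Penk, and GTE gave 0.69 for Vip and 0.92 for Cck. Leiden resolution 0.5 turned caudal Sst to 0.92, and the replicate block turned GTE Pnoc to -0.025. The cause of these reversals was not tested.

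GTE libraries of the same number deviated in opposite ways (correlation -0.35), and a replicate block with crossed numbers called 24 of 12042 genes, none of the 10, against 0 with the numbers as given. The share of Sst cells with Npy was 58.3% when thinned to 2000 counts and ran from 42.2% to 51.7% with a library left out. The 10 genes had their highest mean CPM in an interneuron-like type in 8 to 10 cases over the alternatives, and Cck and Tac1 were those that moved. Depth limits Penk, Pdyn and Tac1, whose levels rest on few counts in few cells.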
